A study of Mus musculus with 6 samples.

Results

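The Dusp, Spry and Spred genes described here encode inhibitors of MAP kinase signals, many of which cells raise in response to the kinase ERK and which then restrain it. The 9 genes are Dusp2, Dusp4, Dusp5, Dusp6, Dusp10, Spry1, Spry2, Spred1 and Spred2, chosen by symbol from the platform annotation out of 19938 measured genes, with the brightest probe set kept for each gene. All 9 were measured, by 10 probe sets in all. Gene expression was compared between naive CD4 T cells without Ly-6C and naive CD4 T cells with Ly-6C, a lipid-anchored surface protein of the Ly6 family. Both populations were taken at 6 weeks of age from peripheral lymph nodes of the strain C57BL/6 Foxp3-GFP, in which a green fluorescent protein reports the regulatory T cell factor Foxp3, and neither population was treated. Both were enriched with magnetic beads and sorted as CD4+ CD8- TCRβ+ CD44lo CD25- Foxp3- cells, then by Ly-6C, so the sort on Ly-6C is the one stated difference between them. RNA of each population was measured on 3 Affymetrix arrays, which the labels call biological replicates. The labels do not say which animals gave the cells of each array or whether animals were pooled, so p-values measure the spread between these arrays.

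When a T cell receptor is engaged, Ras passes the signal through the kinases Raf and MEK to ERK, which enters the nucleus and changes transcription. The Dusp proteins of this group are dual-specificity phosphatases that remove the activating phosphates from MAP kinases. Dusp6 acts on ERK in the cytoplasm and Dusp5 on ERK in the nucleus, Dusp2 and Dusp4 are nuclear phosphatases induced by activation, and Dusp10 acts mainly on the stress kinases JNK and p38. Sprouty proteins, encoded by Spry1 and Spry2, interfere with the path from receptors to Ras and Raf, and Spred proteins, encoded by Spred1 and Spred2, bring the Ras inhibitor neurofibromin to the membrane. Because several of these genes are transcribed in response to ERK, their transcripts are often read beside ERK activity, which was not measured here.

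The sequences just before the starts of 3 of the genes are shown because Dusp6 and Spred1 are the members whose 2 groups of arrays did not overlap, and Dusp5 is the member with the lowest difference. Each is the 250 bases before the RefSeq gene start in GRCm38.p6, on the + strand, at chr10:99262981-99263230 for Dusp6, chr2:117120821-117121070 for Spred1 and chr19:53528895-53529144 for Dusp5. Capitals mark matches to the motifs searched.
Dusp6: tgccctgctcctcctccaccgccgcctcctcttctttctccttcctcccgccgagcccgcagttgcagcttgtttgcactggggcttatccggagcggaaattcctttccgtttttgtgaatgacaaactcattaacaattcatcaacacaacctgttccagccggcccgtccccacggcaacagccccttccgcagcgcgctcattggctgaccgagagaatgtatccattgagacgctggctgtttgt
Spred1: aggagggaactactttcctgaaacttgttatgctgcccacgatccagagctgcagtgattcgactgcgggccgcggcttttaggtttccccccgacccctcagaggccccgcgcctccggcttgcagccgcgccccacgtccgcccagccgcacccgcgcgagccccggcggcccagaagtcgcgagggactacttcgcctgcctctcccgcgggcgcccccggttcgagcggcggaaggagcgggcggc
Dusp5: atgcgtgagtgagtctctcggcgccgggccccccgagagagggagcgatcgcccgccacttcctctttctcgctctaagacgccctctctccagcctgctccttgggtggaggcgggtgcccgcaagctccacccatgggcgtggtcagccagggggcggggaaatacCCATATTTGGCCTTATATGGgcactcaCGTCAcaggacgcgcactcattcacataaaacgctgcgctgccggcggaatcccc

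The table of RefSeq starts held a window for 8 of the 9 genes, all but Dusp4. The motifs, chosen with these windows in view and searched on both strands, were the CArG box bound by SRF, the AP-1 site TGANTCA, the core TGACG of the cyclic AMP response element, the ETS site CCGGAAG and the EGR site GCGNGGGCG. None of them overlaps another in the member windows. Dusp5 held 2 CArG boxes side by side, from 82 to 73 and from 72 to 63 bases before the start, and a TGACG core from 55 to 51 bases before it. A CArG box was found in 1.47% of all 32851 windows and 2 or more in 0.0183%. Dusp2 held the EGR site from 98 to 90 bases before its start, a motif of 4.70% of windows, and Spred2 a TGACG core from 51 to 47 bases before its start, a motif of 17.8% of windows. The AP-1 and ETS letters, found in 6.75% and 6.91% of windows, were in 0 of the 8 member windows. The windows of Dusp6 and Spred1, like those of Dusp10, Spry1 and Spry2, held none of the 5 motifs. These matches describe the letters of a window and were not tied to the measurements.

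None of the 9 genes passed the test. The test was limma's moderated comparison with Benjamini-Hochberg adjustment over all genes and a threshold of adjusted p 0.05, and every difference below is the Ly-6C-negative mean minus the Ly-6C-positive mean on the log2 scale. Among all genes, 0.145% passed, which is 29 genes, and among the 9 members 0 passed, with 2 at an unadjusted p under 0.05, both of them higher in Ly-6C-negative cells. Of all genes 6.71% had such a p and 3.44% had it with a higher value in Ly-6C-negative cells. When replicate number entered as a block, 0.206% of all genes and 0 of the members passed. In that fit 3 of the 9 members had an unadjusted limma p under 0.05, beside 7.31% of all genes. Of the 9 differences 6 lay above 0 and 3 below, beside 47.8% of all genes above 0. The median difference was 0.089 for the members and -0.0048 for all genes. Dusp6 and Spred1, 2 of 9 members, had groups that did not overlap, both with Ly-6C-negative arrays above. Of all genes 12.6% had such groups in either direction and 6.12% in this one, and a count of 2 among so few genes is not read as a result about the group.

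**Figure D1:**
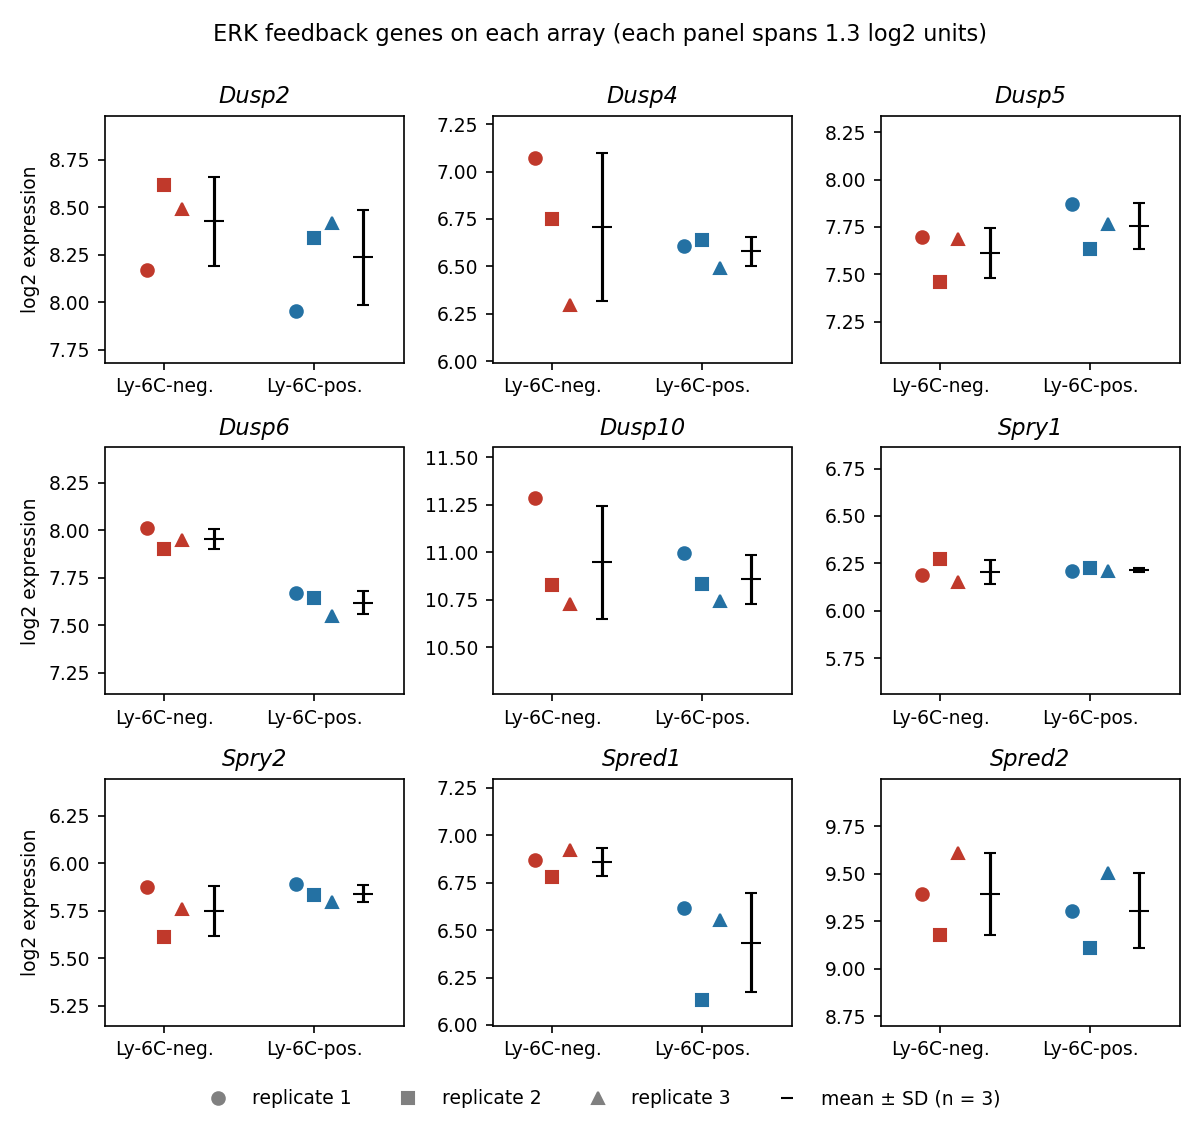
Log2 expression (y axis) of the 9 genes on each array, with Ly-6C-negative cells on the left of each panel and Ly-6C-positive cells on the right; symbols give the replicate number and bars the mean ± SD of 3 arrays. The groups are apart in the panels of Dusp6 and Spred1 and overlap in the other 7.

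Dusp6, the cytoplasmic ERK phosphatase, had the smallest p of the group without the replicate block. It measured 8.01, 7.90 and 7.95 in Ly-6C-negative cells and 7.67, 7.64 and 7.55 in Ly-6C-positive cells. Every Ly-6C-negative array lay above every Ly-6C-positive array, and the arrays of each population were close together. The means were 7.95 ± 0.053 in Ly-6C-negative cells and 7.62 ± 0.062 in Ly-6C-positive cells (SD, n = 3 each). The difference was 0.33, or 1.26-fold, with a standard error of 0.068 and a 95% interval from 0.18 to 0.49 (limma unadjusted p = 0.000675, adjusted p = 0.200). Dusp6 ranked 67 of 19938 genes by p. With the replicate block its limma unadjusted p was 0.00122 (adjusted p = 0.212), larger than the 0.000905 of Spred1 in the same fit. Its limma adjusted p ran from 0.0831, with array weights, to 0.691, without Ly-6C-positive replicate 3, over 14 alternatives, and its difference from 0.30 to 0.36.

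Spred1, which brings neurofibromin to Ras, had the highest difference of the group. It measured 6.87, 6.78 and 6.92 in Ly-6C-negative cells and 6.62, 6.13 and 6.55 in Ly-6C-positive cells. The groups did not overlap, and Ly-6C-positive replicate 2 lay well below the other arrays. The means were 6.86 ± 0.072 in Ly-6C-negative cells and 6.43 ± 0.26 in Ly-6C-positive cells (SD, n = 3 each). The difference was 0.42, or 1.34-fold, with a standard error of 0.12 and a 95% interval from 0.16 to 0.69 (limma unadjusted p = 0.00542, adjusted p = 0.473). Blocked by replicate number, the limma adjusted p was 0.184, the lowest over 14 alternatives. Without Ly-6C-positive replicate 2 the difference was 0.27 (limma adjusted p = 0.899).

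Spred2, the relative of Spred1, measured 9.39, 9.18 and 9.61 in Ly-6C-negative cells and 9.31, 9.11 and 9.50 in Ly-6C-positive cells. The groups overlapped, and arrays with the same replicate number moved together: replicate 3 was the highest and replicate 2 the lowest of each population. The difference was 0.088 with a 95% interval from -0.19 to 0.37 (limma adjusted p = 0.944), and the 3 differences between same-numbered arrays were 0.086, 0.069 and 0.11. It changed sign without Ly-6C-negative replicate 3, at -0.021, and without Ly-6C-positive replicate 2, at -0.011. A second Spred2 probe set, 10374464, measured 9.33, 9.46 and 9.29 in Ly-6C-negative cells and 9.23, 9.22 and 9.48 in Ly-6C-positive cells, a difference of 0.052 (limma adjusted p = 0.956 over all probe sets). It did not share that order of replicates. Within each array the Spred1 value relative to the kept Spred2 probe set was 0.34 higher in Ly-6C-negative cells. The gap between the groups was 0.0024, and relative to probe set 10374464 the groups overlapped. The comparison was chosen after the values were seen and was not tested.

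Dusp5, the nuclear ERK phosphatase, had the lowest difference of the group. It measured 7.69, 7.46 and 7.69 in Ly-6C-negative cells and 7.87, 7.63 and 7.76 in Ly-6C-positive cells. The groups overlapped, since replicate 2 was the lowest array of both populations, but each Ly-6C-negative array lay below the Ly-6C-positive array of its number. The difference was -0.14 with a standard error of 0.090 and a 95% interval from -0.34 to 0.060 (limma adjusted p = 0.847), and the same-numbered differences were -0.18, -0.17 and -0.078. Without Ly-6C-negative replicate 2 it was -0.066 and without Ly-6C-positive replicate 1 it was -0.084. Within each array the Dusp6 value relative to that of Dusp5 was 0.48 higher in Ly-6C-negative cells, with SDs of 0.092 in Ly-6C-negative cells and 0.13 in Ly-6C-positive cells and no overlap of the groups. This comparison of the ERK phosphatases was chosen after the values were seen and was not tested.

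Dusp2, a nuclear phosphatase of activated lymphocytes, measured 8.17, 8.62 and 8.49 in Ly-6C-negative cells and 7.95, 8.34 and 8.42 in Ly-6C-positive cells. The groups overlapped and replicate 1 was the lowest array of both. The difference was 0.19 with a 95% interval from -0.13 to 0.51 (limma adjusted p = 0.884), and the same-numbered differences were 0.22, 0.28 and 0.075. Blocked by replicate number, the standard error was 0.077, against 0.14 without it, and the limma unadjusted p was 0.0332, against 0.208, while the adjusted p was 0.646. The difference was 0.048 without Ly-6C-positive replicate 1, 0.094 without Ly-6C-negative replicate 2 and 0.32 without Ly-6C-negative replicate 1.

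Dusp4, a nuclear phosphatase that acts on ERK and other MAP kinases, measured 7.07, 6.75 and 6.30 in Ly-6C-negative cells and 6.61, 6.64 and 6.49 in Ly-6C-positive cells. Ly-6C-negative replicate 1 was the highest array and Ly-6C-negative replicate 3 the lowest, so the Ly-6C-negative arrays spanned the whole range of the Ly-6C-positive ones. The SD was 0.39 in Ly-6C-negative cells and 0.077 in Ly-6C-positive cells (n = 3 each), and the difference was 0.13 with a 95% interval from -0.23 to 0.49 (limma adjusted p = 0.933). Without Ly-6C-negative replicate 1 it was -0.055 and without Ly-6C-negative replicate 3 it was 0.33.

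Dusp10, the phosphatase of JNK and p38, measured 11.28, 10.83 and 10.73 in Ly-6C-negative cells and 10.996, 10.83 and 10.74 in Ly-6C-positive cells. Replicate 1 was the highest array of both populations and the same-numbered differences were 0.29, -0.0076 and -0.013. The difference was 0.089 with a 95% interval from -0.21 to 0.39 (limma adjusted p = 0.947), and -0.080 without Ly-6C-negative replicate 1.

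Both Sprouty genes had small differences below 0. Spry1 measured 6.19, 6.27 and 6.15 in Ly-6C-negative cells and 6.21, 6.23 and 6.21 in Ly-6C-positive cells, a difference of -0.010 with a 95% interval from -0.16 to 0.14 (limma adjusted p = 0.994). Its sign turned under 3 alternatives, which were another round of quantile normalization, centring arrays on their medians and leaving out Ly-6C-negative replicate 3. Spry2 measured 5.88, 5.61 and 5.76 in Ly-6C-negative cells and 5.89, 5.83 and 5.80 in Ly-6C-positive cells, a difference of -0.092 with a 95% interval from -0.27 to 0.087 (limma adjusted p = 0.902). The Spry2 difference was -0.023 without Ly-6C-negative replicate 2 and -0.16 without Ly-6C-negative replicate 1. In both genes the groups overlapped. A filter at the level of the median gene, tried as an alternative, left out Spry1 and Spry2 and kept the other 7 members.

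**Figure D2:**
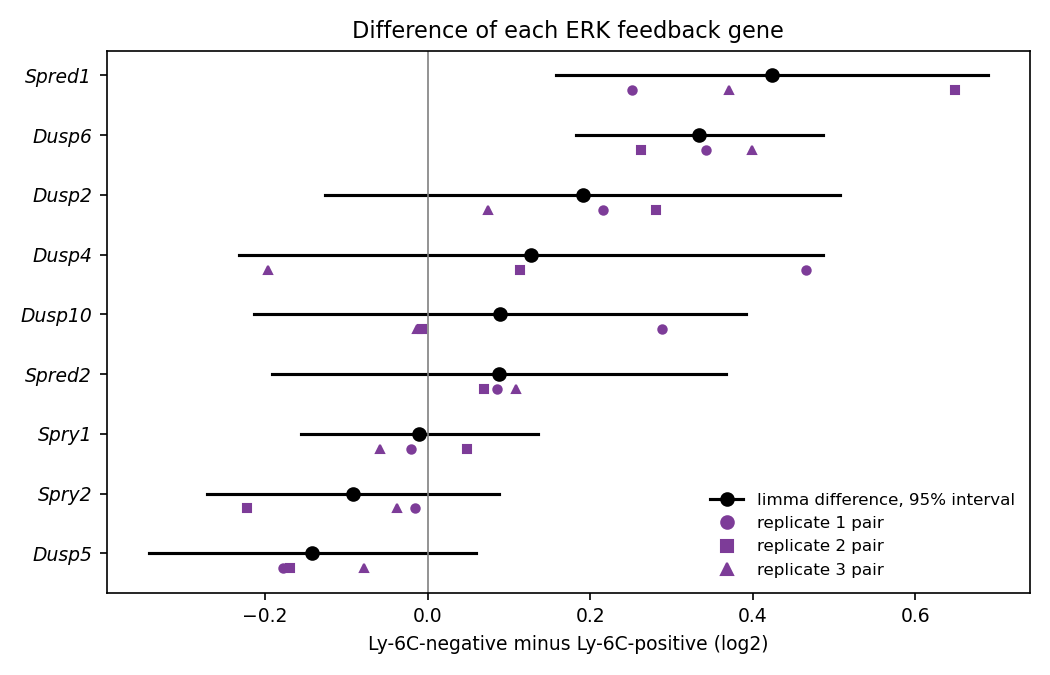
Difference between Ly-6C-negative and Ly-6C-positive cells (x axis, log2) for each gene, with black points and lines for the limma difference and its 95% interval and purple symbols for the differences between arrays of the same replicate number. The intervals of Spred1 and Dusp6 lie above 0 and those of the other 7 genes span 0.

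Arrays with the same replicate number were compared in pairs, since their deviations from the group means correlated at r of 0.129, 0.128 and 0.107 across genes. In 6 of the 9 members all 3 pairs lay on 1 side of 0, beside 28.1% of all genes. These were Dusp2, Dusp6, Spred1 and Spred2 above 0 and Dusp5 and Spry2 below. No test was run on this count. Of these, Spred2 and Spry2 had differences smaller than 0.1 in size.

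**Figure D3:**
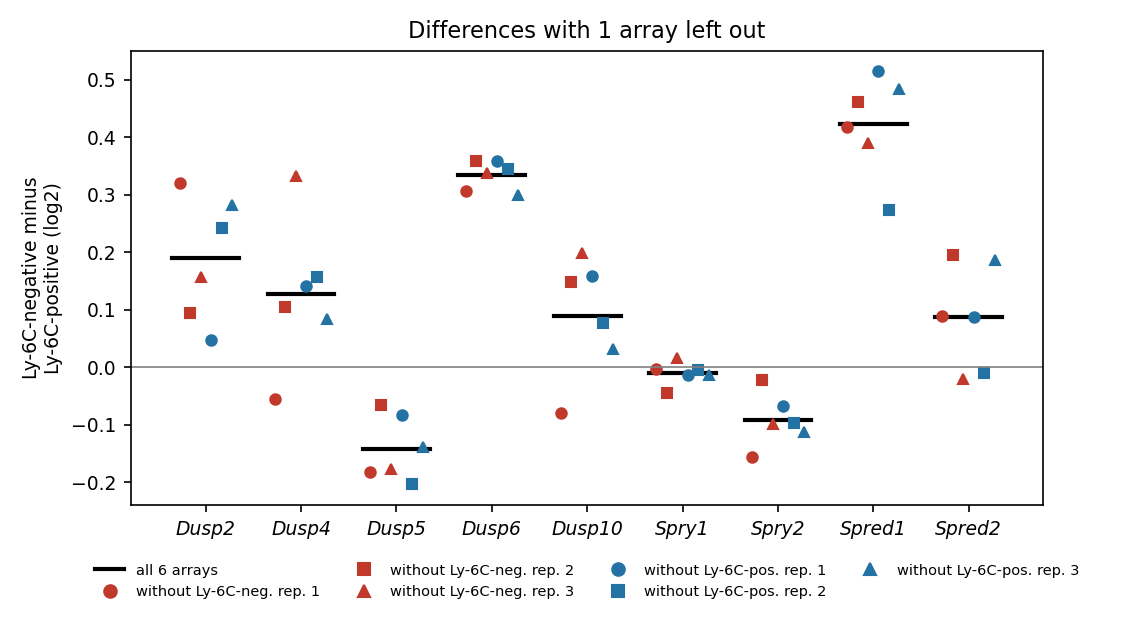
Difference between Ly-6C-negative and Ly-6C-positive cells (y axis, log2) for each gene with all 6 arrays (black line) and with 1 array left out (red for a Ly-6C-negative array, blue for a Ly-6C-positive array, symbols for the replicate number). Dusp6 stays between 0.30 and 0.36, Spred1 between 0.27 and 0.51, and Dusp4, Dusp10, Spry1 and Spred2 cross 0.

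The relatives of these genes did not pass the test either. Among the 5 other dual-specificity MAP kinase phosphatases, 0 passed, 3 differences lay above 0 and the median was 0.038; Dusp16, which acts on JNK and p38, was lowest at -0.19 (limma adjusted p = 0.749). Dusp1, an early-response phosphatase of several MAP kinases, measured 10.20, 10.12 and 10.14 in Ly-6C-negative cells and 10.08, 10.02 and 10.04 in Ly-6C-positive cells, groups that did not overlap at a difference of 0.11 (limma adjusted p = 0.837). Among the 13 atypical Dusp genes, smaller phosphatases without the MAP kinase docking domain, 0 passed and the median was -0.047, with Dusp26 lowest at -0.15 and Dusp23 highest at 0.13. Among the 3 other Sprouty and Spred genes, 0 passed. Spry4 measured 5.78, 6.13 and 5.90 in Ly-6C-negative cells and 6.15, 6.28 and 6.17 in Ly-6C-positive cells, a difference of -0.27 with a 95% interval from -0.48 to -0.057 (limma unadjusted p = 0.0180, adjusted p = 0.617). Its groups did not overlap, with the Ly-6C-negative arrays below the others, the opposite order from Spred1 and Dusp6.

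No measured gene of the cascade that these genes restrain passed the test. Of 19 genes listed from the receptor adaptor Lat to the kinases below ERK, 13 were measured and 0 passed, with a median difference of -0.015; the other genes of the list were not analysed here. Rasgrp1, the exchange factor that loads Ras in T cells, measured 10.44, 10.40 and 10.62 in Ly-6C-negative cells and 10.28, 10.26 and 10.24 in Ly-6C-positive cells. The groups did not overlap, at a difference of 0.22 (limma unadjusted p = 0.0145, adjusted p = 0.594). Grb2, an adaptor between receptors and Ras, differed by -0.17 (limma adjusted p = 0.749). Of 14 other inhibitors of Ras and ERK that were measured, 0 passed, while 13 differences lay above 0 and the median was 0.069; Dok2, an adaptor that recruits a Ras inhibitor, was highest at 0.14 and the neurofibromin gene Nf1, whose product the Spred proteins carry, differed by 0.077 (limma adjusted p of at least 0.793 for the list).

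Transcripts known to follow ERK gave 0 of 21 past the test, with 14 differences above 0 and a median of 0.068. Phlda1, an early gene that ERK raises, measured 7.59, 8.09 and 7.51 in Ly-6C-negative cells and 7.35, 7.40 and 7.20 in Ly-6C-positive cells. The groups did not overlap, and the difference was 0.42 (limma unadjusted p = 0.0132, adjusted p = 0.587). Il2, the interleukin gene, differed by 0.21 at a low level, with means of 4.87 in Ly-6C-negative and 4.66 in Ly-6C-positive cells. The median gene mean was 6.37. Etv5, an ETS factor gene, differed by 0.21 and Egr1 by 0.11. Fosl1 and Fosb, AP-1 subunit genes, differed by -0.19 and -0.21, and Fosb was the lowest of the list (limma adjusted p of at least 0.586 for the list). Of 12 measured JNK and p38 kinase genes, a list that also holds the kinases above JNK and p38, 0 passed. In that list 10 lay above 0, with a median of 0.061. Map3k5, the gene of a stress kinase above JNK and p38, was highest at 0.25 (limma adjusted p = 0.578). At an unadjusted limma p under 0.05 there were 3 ERK-responsive transcripts (2 with positive differences and 1 with a negative one), 3 JNK and p38 kinase genes (all positive), 1 cascade gene (Rasgrp1), 1 other Sprouty gene (Spry4), and 0 genes of the other MAP kinase phosphatases, the atypical Dusp genes and the other Ras and ERK inhibitors, beside the 6.71% of all genes.

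**Figure D4:**
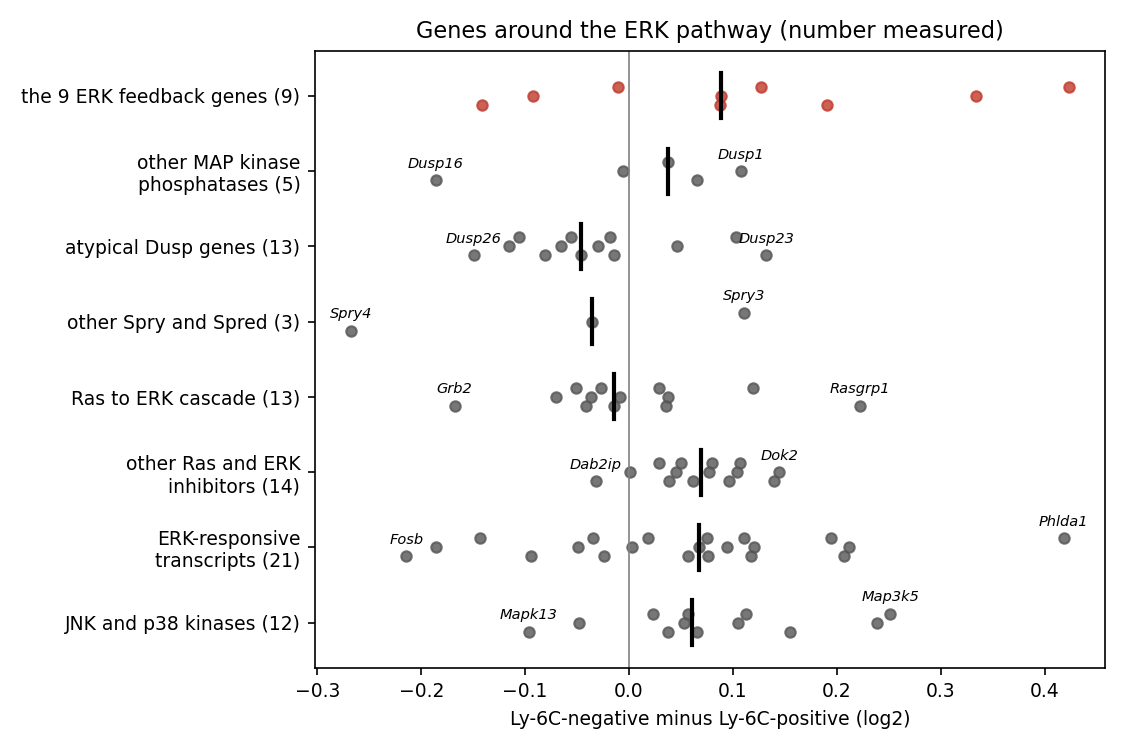
Difference between Ly-6C-negative and Ly-6C-positive cells (x axis, log2) of every measured gene in 8 lists; points are genes, black bars list medians, and the gene at each end of a list other than the first is named. The points of each list lie on both sides of 0 and none passed the test.

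Profiles over the 6 arrays, each centred on its gene mean, were ranked by their distance from that of Dusp6. Predicted and clone-named gene models, small RNAs and receptor segments were left out. The nearest of the remaining genes were Slc9b2, a sodium and proton exchanger gene, Zfp52, a zinc finger gene, and Dnmt3a, a DNA methyltransferase gene. The root mean square distances were 0.020, 0.022 and 0.033 on the log2 scale. Dnmt3a measured 8.73, 8.65 and 8.70 in Ly-6C-negative cells and 8.34, 8.33 and 8.29 in Ly-6C-positive cells, a difference of 0.38 (limma adjusted p = 0.0808). None of the 3 passed the test.

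The sort showed in the transcripts of Ly-6C. The brighter probe set shared by Ly6c1 and Ly6c2, near-identical genes, averaged 8.49 in Ly-6C-negative cells and 11.66 in Ly-6C-positive cells, a difference of -3.18 (limma adjusted p = 3.94e-05 over all probe sets). Of 7 measured naive CD4 T cell markers 0 passed. Of 8 regulatory T cell markers 3 passed, all higher in Ly-6C-negative cells, Ctla4, Ikzf2 and Gpr83. The log2 of the summed level of the 8 ran from 10.85 to 11.13 in Ly-6C-negative cells and from 10.34 to 10.46 in Ly-6C-positive cells. Such a sum gives most weight to the brightest genes and does not stand for the whole list. Ctla4 alone differed by 1.34, with means of 9.76 in Ly-6C-negative and 8.43 in Ly-6C-positive cells. Of the 8 differences 6 lay above 0. Itgae, at -0.088 with groups that did not overlap, and Tnfrsf18, at -0.012, lay below 0. Foxp3, which defines regulatory T cells, differed by 0.013, but both populations were sorted as Foxp3-. Of 8 NK cell markers 2 passed, both lower in Ly-6C-negative cells, Klrd1 and Gzma. The summed levels of this list ran from 9.08 to 9.34 in Ly-6C-negative cells and from 9.77 to 10.02 in Ly-6C-positive cells. This sum, too, does not stand for the whole list. Klrd1 alone differed by -1.50, with means of 7.03 in Ly-6C-negative and 8.53 in Ly-6C-positive cells. Of the 8 differences 2 lay above 0, Nkg7 at 0.17 and Klrb1c at 0.0083. Ncr1, which defines NK cells, differed by -0.054. Its means were low, at 4.35 in Ly-6C-negative and 4.40 in Ly-6C-positive cells, beside a median gene mean of 6.37. Prf1, the perforin gene of the same list, differed by -0.70 and passed with the replicate block (limma adjusted p = 0.00848, against 0.145 without it), which made 3 lower. The part of either marker list in the values of Dusp6 and Spred1 was not tested. In the lists of CD8 T cells, B cells, activated and memory T cells, myeloid cells and dissociation stress 0 genes passed, and the summed levels of the groups overlapped. At an unadjusted limma p under 0.05 these lists had 2, 1, 2, 2 and 1 genes, and the naive CD4 list 0. For CD8 T cells they were Eomes at 0.27 and Crtam at -0.29, in a list with 1 of 5 differences above 0. The B cell gene was Cd74 at 0.16. For activated and memory T cells they were Cd44, a gate of the sort, at -0.25 and Ccl5 at 0.59. The myeloid genes were Lyz2 at 0.25 and Fcer1g at -0.17, and the stress gene was Jun at -0.30 (limma adjusted p of at least 0.427 for all of these). Cd44 had the smallest limma unadjusted p of these lists, 0.00356, and its groups did not overlap. In bulk RNA, more cells with a transcript and more transcript per cell cannot be told apart.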

How the data were processed

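The deposited values are log2 expression of 28853 probe sets on 6 arrays. The submitters' processing notes name RMA and Partek, without a version or role. Per the labels' protocols, 50 ng of total RNA per sample was amplified and biotin labelled. The deposited log2 values ran from 2.47 to 13.6 and array medians from 6.25 to 6.29. RMA makes arrays alike and compresses differences of dim genes, so a shift shared by all genes cannot be seen. The number of arrays limits the precision. The chip description is not given in the sources used here, nor is its build.

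The platform annotation gave 1 symbol to 21789 probe sets, several to 1621 and none to 5443. The brightest probe set per gene left 19938 genes, with no filter on level. The test was 2-sided limma (version 3.58.1, R 4.3.3) by lmFit and then eBayes, without covariates and with 5.56 prior degrees of freedom, and the steps were tested on simulated data. Figures used matplotlib 3.10.9. Promoter windows are RefSeq, GRCm38.p6. The members and lists were chosen with earlier results of these data known; some list genes are not analysed here. Named genes are the 9 members, up to 4 genes per list with the smallest p, and the 3 nearest profiles. Those are nearest to the member with the smallest p, with predicted and clone-named models, small RNAs and receptor segments left out. Nf1, Egr1, Foxp3, Itgae, Tnfrsf18, Ncr1, Nkg7, Klrb1c and genes at the ends of plotted lists were named outside that rule, with their values seen.

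Replicate numbers are shared by the groups, and same-numbered arrays correlated above 0.1 in all 3 pairs, so the numbers were read as pairs from the data, not from the labels. Alternatives were a replicate block, a further quantile normalization, centring arrays on their medians, dropping dim genes, keeping every probe set, averaging probe sets, a trended and robust eBayes, weighting arrays, dropping each array in turn and an adjusted p of 0.1.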

Additional observations from a re-analysis of the deposited data

How the results depend on the processing

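The count of members past the limma threshold was 0 under all 15 alternatives, among them the replicate block (limma adjusted p of at least 0.184) and an adjusted p of 0.1. The replicate block left the differences as they were and changed no call of a member. The count of members whose groups do not overlap ran from 2 to 4 with 1 array left out, the highest without Ly-6C-negative replicate 1. Fewer arrays make overlap rarer: the share over all genes was 21.8% without that array and 20.8% to 27.0% over the 6 arrays, beside 12.6% with all arrays. The median difference of the members ran from -0.0029, without Ly-6C-negative replicate 1, to 0.16, without Ly-6C-negative replicate 3, so its sign rests on Ly-6C-negative replicate 1. The sign turned for Spry1 at 0.016 with a second quantile normalization, 0.013 with array medians subtracted and 0.017 without Ly-6C-negative replicate 3. It turned for Dusp4 at -0.055 and Dusp10 at -0.080 without Ly-6C-negative replicate 1, and for Spred2 at -0.021 without Ly-6C-negative replicate 3 and -0.011 without Ly-6C-positive replicate 2. The cause was not tested. With 1 array left out, Dusp4 ran from -0.055 to 0.33, Dusp10 from -0.080 to 0.20, Spry1 from -0.045 to 0.017 and Spred2 from -0.021 to 0.20. The other 5 members kept their sign in every alternative run, but with 1 array left out Dusp2 ran from 0.048 to 0.32, Dusp5 from -0.20 to -0.066, Spry2 from -0.16 to -0.023, Spred1 from 0.27 to 0.51 and Dusp6 from 0.30 to 0.36. Among all genes, 54 passed with array weights and 41 with the replicate block, beside 29. Leaving out 1 array gave 5 to 47, the lowest without Ly-6C-negative replicate 1. Signal over background was not measured per probe set in the deposited table.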
